A study of Brassica carinata x Brassica rapa with 9 samples.

Results

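In this study 96 of the 100804 genes in the data had reads in Ovule and no read in any Leaf or Anther library, at a mean of at least 1 FPKM (fragments per kilobase of gene, scaled to the reads of the library) in Ovule. They were chosen by their own values: FPKM of exactly 0 in the 6 Leaf and Anther libraries and a mean of at least 1 FPKM over the 3 Ovule libraries. Their absence from Leaf and Anther and their presence in Ovule are therefore the choice itself and not results. The data hold 3 RNA-Seq libraries from each of 3 tissues, named Ovule, Anther and Leaf. Leaf stands for young leaves, while the Anther material ran from meiosis up to ripe pollen. All 9 libraries came from a synthetic Brassica allohexaploid of genotype AABBCC, which joins the A-genome, from B. rapa, to those of B. carinata (B and C) and does not occur in nature. The sample labels give B. carinata as the male parent and B. rapa as the female parent, whereas the methods of the study give the reverse. Each Ovule library pooled stages between meiosis and a finished embryo sac, so that stages and cell types within the ovule cannot be told apart, and fewer cells of a type cannot be told from less RNA per cell.

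In flowering plants the ovule holds the female germline. A megaspore mother cell passes through meiosis, a surviving megaspore divides to form the embryo sac with its egg cell, synergids, central cell and antipodal cells, and the integuments around it later form the seed coat. The cells of the embryo sac are few and lie buried in maternal tissue, and in Arabidopsis they express secreted peptides and transcription factors that are hard to find in other organs. The data give identifiers without gene names, and no annotation was used here, so the genes below are described by identifier, subgenome, coding length and level, without a function. The subgenome was read from the identifier, which starts with Bra on the A-genome, with BniB on the B-genome and with Bol on the C-genome.

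The FPKM values are whole reads times a fixed step, so that the reads behind each value and the gene length could be read back. A recovered read is 1 unit of the count behind FPKM, that is 1 fragment. The library totals behind FPKM were 8682100 to 10161664 reads in Leaf, 15106480 to 15557379 in Anther and 15126669 to 15530329 in Ovule, so that a 0 in Leaf rests on fewer reads than a 0 in Anther. The study also reports that a smaller share of the reads mapped in Leaf than in Anther and Ovule. The Ovule libraries correlated with each other at Pearson's r of 0.977 to 0.984 on log2(FPKM + 1), the Leaf libraries at 0.987 to 0.988 and the Anther libraries at 0.934 to 0.971, across genes, which are not independent replicates. The 15 AMS, MYB80 and TDF1 genes that the study names, regulators of the tapetum in the anther wall, summed to 1592 to 1874 FPKM in the Anther libraries and to 0.431 to 0.869 FPKM in Leaf, where 11 of the 15 were at 0. In Ovule replicates 1, 2 and 3 they summed to 0.914, 2.53 and 9.13 FPKM, with 1 of the 15 at 0 in all 3 libraries. Ovule replicate 3 thus held the most transcript of these anther genes, and the part this has in the values below was not tested. That the 96 genes had no read in Anther is the choice itself.

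The genes detected only in ovule were a small set of mostly low level. They made up 0.0952% of all genes and 5.13% of the 1870 genes whose reads were in Ovule alone, most of which lay below 1 FPKM. Their mean Ovule levels ranged from 1.021 to 51.1 FPKM with a median of 2.17 FPKM, against a median of 6.85 FPKM for all genes with at least 1 FPKM in Ovule. There were 41 genes between 1 and 2 FPKM, 28 between 2 and 5 FPKM, 9 between 5 and 10 FPKM and 18 at 10 FPKM or more. The 12 highest genes held 54.8% of the summed mean FPKM of the set. Together the 96 genes took 0.0438%, 0.0604% and 0.0622% of all FPKM in Ovule replicates 1, 2 and 3, a mean of 0.0555% ± 0.0101 (SD, n = 3).

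**Figure D1:**
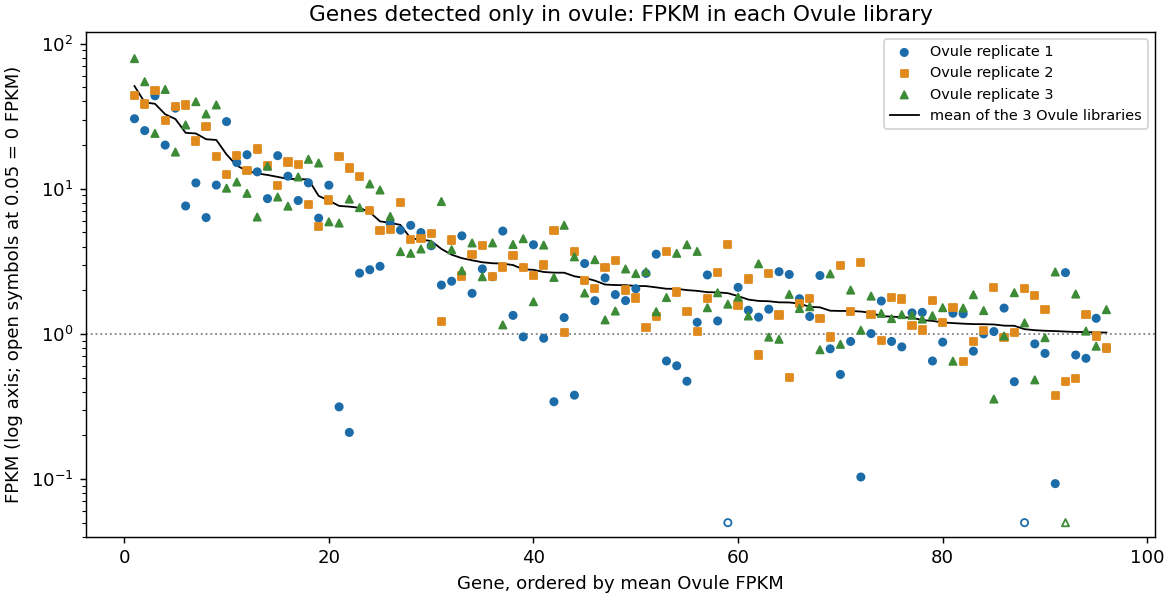
FPKM of the 96 genes in each of the 3 Ovule libraries (log axis), ordered by their mean, which the black line gives; the dotted line marks 1 FPKM. Open symbols stand for 0 FPKM, which 3 genes have in 1 library each, and several genes lie far lower in Ovule replicate 1 than in the other Ovule libraries.

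Under the same thresholds, fewer genes were found in Ovule alone than in the other tissues. The count was 206 genes for Leaf alone and 1524 for Anther alone. Without the minimum of 1 FPKM there were 1870 genes for Ovule alone, above the 1514 for Leaf alone and below the 9948 for Anther alone. These were 2.16%, 1.90% and 10.3% of the genes with reads in Ovule, Leaf and Anther, respectively. Of the genes with a mean of at least 1 FPKM in a tissue, 0.158% of 60654 were at 0 elsewhere for Ovule, 0.379% of 54327 for Leaf and 2.38% of 63963 for Anther. For Ovule this share fell with level, from 0.524% of genes at 1 to 2 FPKM to 0.0617% at 5 to 10 FPKM, and it was 0.0802% at 10 FPKM or more. Ovule and Anther libraries were of similar depth, whereas genes found in Leaf alone had to be at 0 in 6 deeper libraries and genes found in Ovule alone had to be at 0 in 3 deep and 3 shallower ones. These shares are counts without a test.

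**Figure D2:**
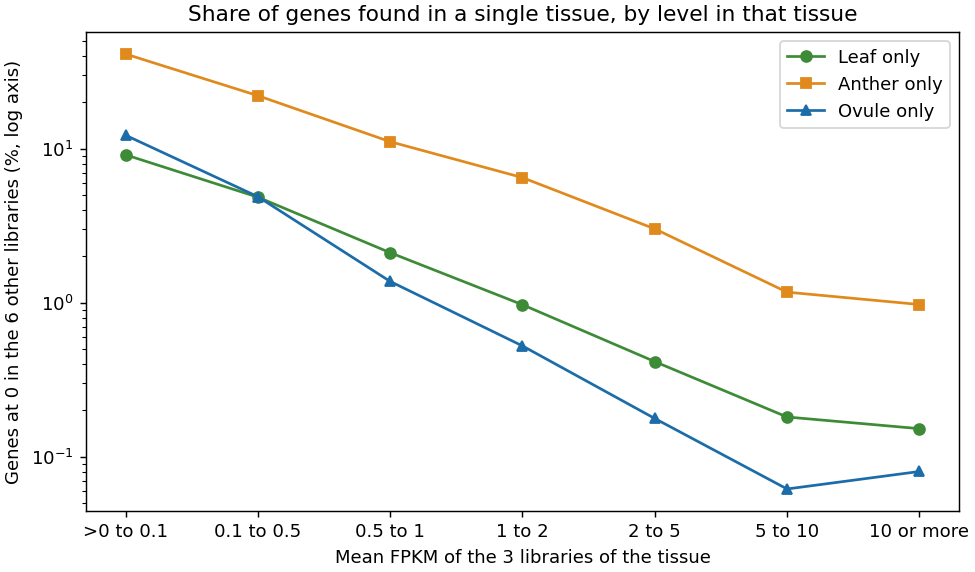
Share of genes at 0 in the 6 libraries of the other tissues (percent, log axis) by mean FPKM in the tissue, for Leaf, Anther and Ovule. The Ovule line ends at 0.0802% at 10 FPKM or more and lies below the Anther line at each level. From 0.5 FPKM upwards it lies below the Leaf line, and at lower levels above it.

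The highest gene was Bra014912, of the A-genome, with 30.4, 43.9 and 79.0 FPKM in Ovule replicates 1, 2 and 3 (51.1 ± 25.1, SD, n = 3). Its coding length was 180 bases, so that this level rested on 422 reads in all. BniB029470, the highest B-genome gene, stood at 25.2, 38.4 and 54.7 FPKM and had the most reads of the set, 2722 over 1503 bases. Both were lowest in Ovule replicate 1 and highest in Ovule replicate 3. Bra024911 behaved differently, with 43.8, 47.8 and 24.1 FPKM, and so did Bra013028, with 36.0, 36.9 and 17.9 FPKM; both were lowest in Ovule replicate 3.

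BniB048288 stood at 20.01, 29.6 and 48.4 FPKM in Ovule replicates 1, 2 and 3. Bol012028, the highest C-genome gene, stood at 7.62, 37.8 and 27.5 FPKM. Bol037248 stood at 10.98, 21.3 and 39.9 FPKM and was the longest gene of the set, with 2257 reads over 2046 bases. All of these were lowest in Ovule replicate 1. Bra032462 stood at 6.34, 26.8 and 32.8 FPKM, and Bra004182, with 1322 reads, at 10.6, 16.7 and 37.9 FPKM. Bol015285 stood highest in Ovule replicate 1, with 29.1, 12.6 and 10.1 FPKM, on 115 reads over 144 bases. Bol020634, at 15.2, 17.0 and 11.1 FPKM, and Bra026880, at 17.2, 13.4 and 9.30 FPKM, varied less between libraries. Of these 12 genes, 6 belonged to the A-genome, 2 to the B-genome and 4 to the C-genome.

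Outside these 12, the genes with the most reads were BniB005082, Bra002444 and BniB048327. BniB005082 had 600 reads over 1125 bases and 10.99, 7.83 and 15.98 FPKM. Bra002444 had 443 reads and 2.62, 12.1 and 7.41 FPKM. BniB048327 had 433 reads and 12.2, 15.3 and 7.59 FPKM. A different Ovule library was thus the highest in BniB005082 than in the other two.

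At the other end the genes rested on few reads. The 96 genes had 10 to 2722 reads over the 3 Ovule libraries, with a median of 69.5, and 38 of them had fewer than 50 reads. Where reads share a common factor, the smallest solution with a whole length divisible by 3 was taken. The values are thus lower limits on reads and length. Just inside the minimum of 1 FPKM lay Bol008616, at 1.021 FPKM from 19 reads, and Bra013619, at 1.024 FPKM, also from 19 reads. Just outside it lay Bra025373, at 0.998 FPKM, and Bra018968, at 0.974 FPKM, each from 12 reads. The genes on either side of the limit thus rest on a handful of reads each.

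How far the genes stood above Leaf and Anther can be given only as a lower bound. With 3 reads in each library as the floor, the bound over Leaf had a median of 4.76-fold and a highest value of 186-fold, and over Anther a median of 7.72-fold and a highest value of 302-fold. A bound of at least 10-fold over both tissues was reached by 27 genes, and of at least 50-fold by 5. For 21 genes the bound over Leaf was below 2-fold, and for 4 of these below 1-fold. For these 4 genes the bound did not place Leaf below Ovule. Over Anther the bound was below 2-fold for 7 genes and below 1-fold for none of the 96. These bounds cover counting error only. The floor is cautious, since 3 reads over the 3 libraries of a tissue together would give higher bounds.

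A limma fit on log2(FPKM + 0.1) took in the 75038 genes that reached 0.5 FPKM in 3 or more libraries. With calls made at 2-fold or more and a p, adjusted by Benjamini and Hochberg, no higher than 0.05, it called 36.8% of genes higher in Ovule than in Leaf and 14.3% higher in Ovule than in Anther. Against Leaf 71.4% of all calls were higher in Ovule, and 48.7% were after the libraries were rescaled by median-of-ratios factors, which moved the median log2 fold change of all genes from 0.66 to 0.06. Of the 96 genes, 82 passed the filter and all of these 82 were called in both comparisons, which the choice of the genes fixes. The other 14 were below 0.5 FPKM in at least 1 Ovule library. Both comparisons use the same Ovule libraries, and nothing is read from these counts.

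To see the same measure in a library that had no part in the choice, the rule was applied to 8 libraries and the ninth was then read. When an Ovule library was held out, most of the genes chosen on the other 8 libraries had reads in it, which a mean of at least 1 FPKM in the other Ovule libraries nearly fixes. For Ovule replicate 1 this was 101 of 110 genes, for Ovule replicate 2 it was 91 of 92 and for Ovule replicate 3 it was 93 of 95, that is 91.8%, 98.9% and 97.9%. Of all genes with a mean of at least 1 FPKM in the other Ovule libraries, 99.7%, 99.9% and 99.9% had reads in the held-out library. At least 1 FPKM was reached in the held-out library by 66, 75 and 78 of these genes, respectively, that is 60.0%, 81.5% and 82.1%, against 95.5%, 96.5% and 96.6% of all genes with that mean. Ovule replicate 1 thus held the lowest share of the genes chosen without it. The comparison with all genes is not matched on level. The 96 genes had a median of 2.17 FPKM in Ovule, against 6.85 FPKM for all genes with at least 1 FPKM there.

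When a Leaf or Anther library was held out, fewer of the genes had reads in the shallower Leaf libraries than in the Anther libraries. Of the genes chosen on the other 8 libraries, 8 of 104 had reads in Leaf replicate 1, 3 of 99 in Leaf replicate 2 and 5 of 101 in Leaf replicate 3. In Anther replicates 1, 2 and 3 it was 63 of 159, 12 of 108 and 36 of 132 genes. Of all genes, 73.0% to 73.9% had reads in the Leaf libraries and 90.3%, 83.9% and 87.7% in Anther replicates 1, 2 and 3, the same order as the counts among the chosen genes. Of the 63 genes with reads in Anther replicate 1, 51 had at most 3 reads there, and the gene lists with and without this library differ by these 63 genes alone. The number of genes detected only in ovule was thus 159 without Anther replicate 1, and Anther replicate 1 also had the most genes with reads of all libraries, 90982. Most of these genes had very low values there, with 2 at 1 FPKM or more. They were Bra036578, at 2.40 FPKM, and Bra009255, at 97.3 FPKM from 485 reads. Bra009255 had no read in Anther replicates 2 and 3 or in Leaf, and 0.394, 0.198 and 3.44 FPKM in Ovule replicates 1, 2 and 3; it was named after its values were seen.

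**Figure D3:**
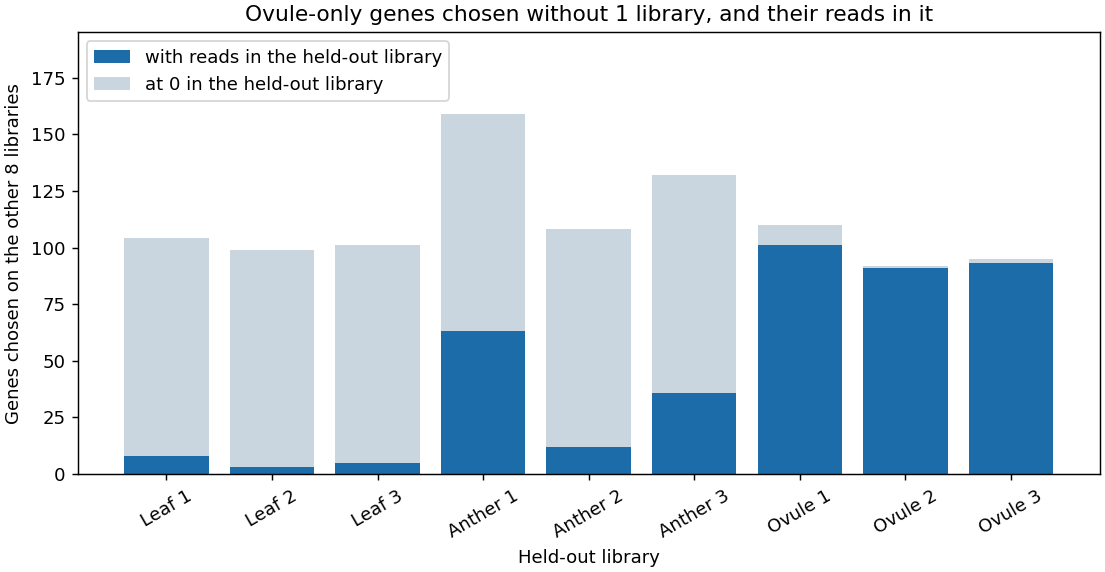
Number of genes chosen on 8 libraries by the rule, for each held-out library, split into genes with reads in that library and genes at 0 in it. In the Ovule bars nearly all genes have reads, and of the other bars that of Anther replicate 1 holds the most genes with reads, 63 of 159.

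Many more genes came close to the choice and had a handful of reads elsewhere. With at least 1 FPKM in Ovule, 71 genes had exactly 1 read in the 6 Leaf and Anther libraries together, of which 60 had it in Anther and 11 in Leaf. A further 72 genes had 2 reads, 65 had 3, 54 had 4 and 70 had 5. The highest gene with 1 read was BniB013615, at 136, 51.1 and 105 FPKM in Ovule replicates 1, 2 and 3, with its read in Leaf replicate 2. It stood above every gene of the set. The next were BniB017638 at 29.0 ± 8.33 FPKM, BniB007275 at 21.0 ± 11.7, Bra014454 at 19.2 ± 7.10 and Bol011389 at 14.8 ± 7.70 (SD, n = 3), each with its read in an Anther library. At this depth a level behind 0 reads and one behind 1 read could not be told apart.

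The genes varied strongly between the Ovule libraries. The median coefficient of variation over the 3 libraries was 0.407, against 0.142 for the 56870 other genes with an Ovule mean in the same range. The highest library was at least 2-fold above the lowest in 65.6% of the 96 genes and in 14.0% of the other genes. Among genes with 20 to 500 Ovule reads the medians were 0.407 for 80 of the genes and 0.178 for 36004 others, though within this bracket the former still had fewer reads, with a median of 71.5 against 196. Such a spread was also present outside the set: 500 other genes in this bracket, with an Ovule mean at least 10-fold above those of Leaf and Anther, had a median of 0.374, and in 54.6% of them the libraries were at least 2-fold apart.

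Ovule replicate 1 was most often the lowest. It was the lowest library for 48 of the 96 genes, against 31.5% of the other genes in the same range and 47.5% of the 672 of these with an Ovule mean at least 10-fold above those of Leaf and Anther. The genes summed to 474 FPKM in Ovule replicate 1, 647 in Ovule replicate 2 and 682 in Ovule replicate 3. For 20 genes Ovule replicate 1 was at least 2-fold below each of the other Ovule libraries, which is 20.8% of the set against 2.28% of other genes. Wide gaps in the other direction were also more frequent than among other genes, with Ovule replicate 1 at least 2-fold above each of the others in 3.13% against 0.383%, Ovule replicate 2 in 8.33% against 0.856% and Ovule replicate 3 in 11.5% against 2.09%. The median log2 ratio of Ovule replicate 3 to Ovule replicate 1 was 0.55 for the 96 genes and -0.02 for the other genes, on log2(FPKM + 0.1). That of Ovule replicate 2 to Ovule replicate 1 was 0.35 and 0.00. The shares with 2-fold gaps were not matched on reads, of which the set had a median of 69.5 and the other genes 335. They were not taken for the genes at least 10-fold above Leaf and Anther. These are descriptions of 3 libraries without a test.

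**Figure D4:**
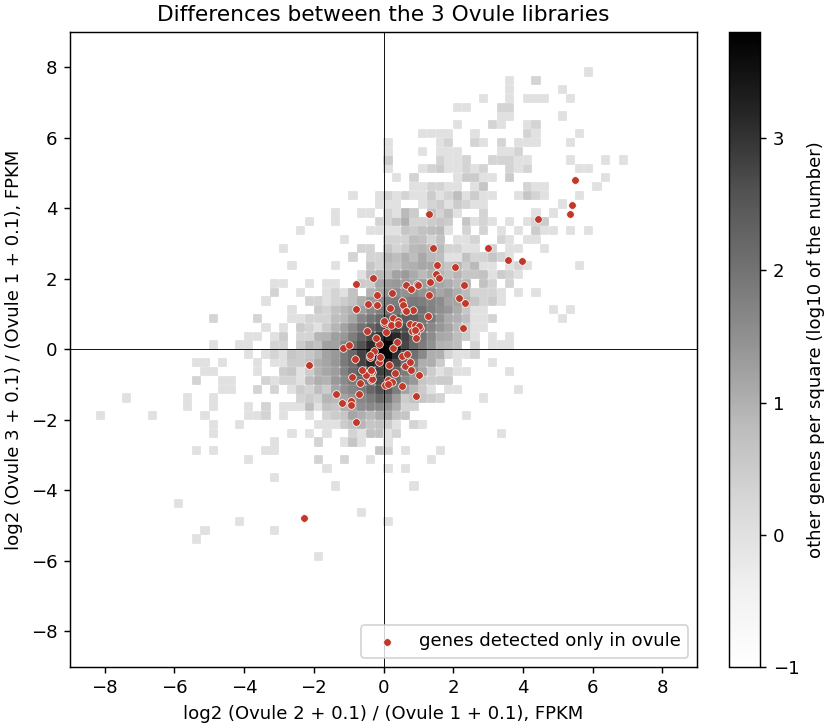
log2 ratio of Ovule replicate 2 to replicate 1 (horizontal) and of Ovule replicate 3 to replicate 1 (vertical), on FPKM + 0.1, for the 96 genes (red) over the 56870 other genes of the same range of means (grey squares, darker for more genes). The 96 genes spread to the upper right, where Ovule replicate 1 is the lowest library.

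The clearest cases were genes that were close to absent from Ovule replicate 1. Bol018303 stood at 0.314, 16.8 and 5.80 FPKM in Ovule replicates 1, 2 and 3, and BniB035787 at 0.209, 13.9 and 8.49 FPKM. Both have a coding length of 615 bases and belong to different subgenomes, and both peaked in Ovule replicate 2. Bra039950, at 0.341, 5.14 and 2.45 FPKM, and Bol010715, at 0.103, 3.12 and 1.06 FPKM, showed the same order of libraries. BniB046936 differed from these, at 0.0929, 0.374 and 2.67 FPKM, and was high in Ovule replicate 3 only.

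Another 3 genes had no read in 1 of the Ovule libraries. Bra003784 stood at 0, 4.12 and 1.60 FPKM, and Bra028170 at 0, 2.04 and 1.19 FPKM. Bra005174 went the other way, with 2.64, 0.470 and 0 FPKM. The other 93 genes, or 96.9%, had reads in all Ovule libraries, and 57 reached 1 FPKM in each of them. The largest share of a gene's summed Ovule FPKM in 1 library was 85.1%, in BniB046936. At the steady end, 10 genes had a highest library less than 1.5 times the lowest.

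The 3 subgenomes took about the same share of the set as of all genes. The A-genome gave 36 genes (37.5%), the B-genome 34 (35.4%) and the C-genome 26 (27.1%), against 35.03%, 36.5% and 28.5% of all genes in the data. Of the 27 genes at 5 FPKM or more, 12 were of the A-genome, 9 of the B-genome and 6 of the C-genome. Reads that fit copies on several subgenomes may have been dropped or given to 1 copy, and how they were treated is not given in the sources used here.

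The genes were shorter than others. Their coding lengths ran from 78 to 2046 bases with a median of 559.5, against 1119 for other genes with an Ovule mean in the same range and 1014 for all genes. Of the set 53.1% were under 600 bases, against 18.9% of those other genes. Genes found in Leaf alone and in Anther alone, under the same thresholds, had medians of 517.5 and 696 bases. The lengths of the set are lower limits that rest on the Ovule libraries alone, whereas those of most other genes rest on more libraries. At a given FPKM a shorter gene holds fewer reads, and the part of length in the choice was not tested.

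Some genes of the set had the same length as a gene of the set on another subgenome. There were 7 such pairs among 3044, or 0.230%, against 0.179% of pairs over all genes within the range of lengths of the set, so that equal length alone sets no pair apart. Bra019017 and BniB024222, both of 504 bases, had alike values, with 8.56, 14.5 and 14.3 FPKM for the former and 8.30, 14.7 and 12.1 FPKM for the latter. Bol042398 and Bra001904, both of 516 bases, were both highest in Ovule replicate 1 and lowest in Ovule replicate 3, with 5.12, 2.89 and 1.15 FPKM and 4.12, 2.51 and 1.67 FPKM. Other pairs differed, such as BniB004092, at 10.6, 8.37 and 5.92 FPKM, and Bol043576, at 0.378, 3.71 and 3.40 FPKM, both of 681 bases. Bol015285 was far above Bra005616, which had 2.68, 1.35 and 0.918 FPKM at the same 144 bases. Whether any pair holds copies of the same ancestral gene was not examined here.

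Genes with neighbouring identifier numbers were also looked at, since the numbers were not used in the choice; their places on the chromosomes were not used here. There were 163 pairs of a gene of the set and a gene numbered 1 above or below it. In 25 of these (15.3%) the neighbour was ovule-preferential, that is at 1 FPKM or more in Ovule and at least 2-fold above the means of Leaf and Anther. Over all genes this share was 7.39%, and next to any ovule-preferential gene it was 10.8%. In 6 of the 163 pairs the neighbour belonged to the set and so was ovule-preferential by its choice. Without these the share was 19 of 157, or 12.1%. Bol043577, which is ovule-preferential, was counted both beside Bol043576 and beside Bol043578. In 3 cases both genes of a pair belonged to the set. BniB004152 stood at 1.34, 3.47 and 4.13 FPKM and its neighbour BniB004153 at 0.954, 2.88 and 4.53 FPKM, with the same order of libraries. BniB048326 stood at 1.48, 2.61 and 0.9498 FPKM, in the same order as BniB048327 above, and the next genes in number, BniB048328 and BniB048329, stood at 12.6 ± 3.92 and 118 ± 21.8 FPKM in Ovule with 0.123 and 6.59 FPKM in Anther.

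Bra016323 stood at 0.525, 2.95 and 0.848 FPKM, while its neighbour Bra016324, of 123 bases, was even, at 5.76, 5.27 and 6.45 FPKM. The next gene, Bra016325, was far higher, at 186 ± 38.4 FPKM in Ovule (SD, n = 3), 38.1 FPKM in Anther and 0 in Leaf. In a run chosen after its values were seen, Bol043576, at 0.378, 3.71 and 3.40 FPKM, and Bol043578, at 5.599, 4.46 and 3.59 FPKM, lie on either side of Bol043577, at 5.73 ± 0.948 FPKM in Ovule and 0.0770 FPKM in Anther. These 2 runs and that of BniB048326 thus hold genes of the set beside ovule genes with reads in Anther, whereas BniB004151, BniB004154 and BniB004155, beside BniB004152 and BniB004153 in number, were at 0, 0.0718 and 0.206 FPKM in Ovule.

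**Figure D5:**
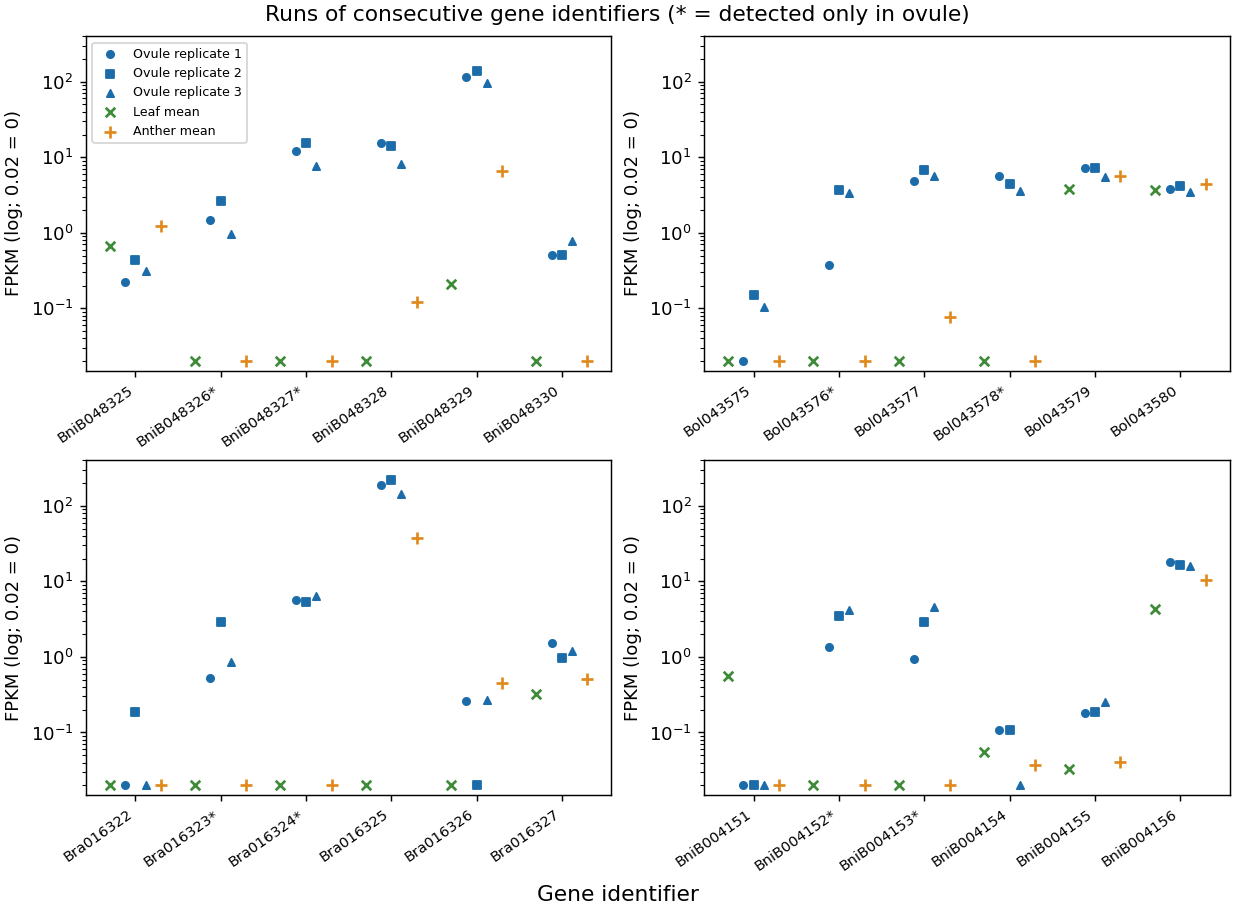
FPKM (log axis, with 0 drawn at 0.02) in the 3 Ovule libraries and mean FPKM in Leaf and Anther for 4 runs of consecutive identifiers; asterisks mark genes detected only in ovule. The highest gene of these runs in Ovule is Bra016325, at a mean of 186 FPKM, which has 38.1 FPKM in Anther.

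None of the 111 genes that the study names by identifier was in the set, which holds 0.0952% of all genes. With so small a share, the lack of overlap says little about the 111 genes. Its 23 genes of female gamete development, such as copies of AUX1, an auxin importer, all had reads in Leaf and in Anther. They summed to 228 to 260 FPKM in the Ovule libraries, 74.7 to 87.6 FPKM in Anther and 22.2 to 27.5 FPKM in Leaf. All 23 passed the filter and were called higher in Ovule than in Leaf and than in Anther (limma), beside 36.8% and 14.3% of all genes tested. The study picked these genes from the same libraries, so this is not independent evidence. Their median log2 fold change was 3.34 over Leaf and 1.57 over Anther, on log2(FPKM + 0.1).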

How the data were processed

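The study prepared the libraries with the VAHTS Universal V6 kit, removed poor reads, used HISAT2 2.1.0 for alignment to reference genomes of the A, B and C types and counted reads per gene with HTSeq 0.6.0. FPKM values were deposited by the authors for 100804 genes in 9 libraries, with no scaling between libraries stated; StringTie 1.3.2 is named in the labels without a role. Groups were taken from the sample titles. The study calls the libraries biological replicates, while the labels do not say from which plants they came.

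Whole reads and lengths were recovered from the FPKM steps as the smallest solution whole within 0.01 to 0.05 read and 0.02 base. Where fewer than 5 libraries had reads, as in every gene of the set, the length also had to be divisible by 3. Such a solution was found for 99.99% of genes and was used for depth, bounds and an alternative test. The main test, on log2(FPKM + 0.1), came from limma 3.58.1 (R 4.3.3), with a trend and no block over 9 libraries. The deposited values are FPKM and not counts, and the DESeq2 test of the study was not used. Of the tests, only the alternative one took the recovered reads. Both steps were tested on simulated data. In that for limma the changed genes had reads in all tissues, so it does not cover genes at 0 in Leaf and Anther. Other steps used matplotlib 3.10.9, scipy 1.17.1, pandas 2.3.3 and numpy 2.4.6 under Python 3.11.15. Alternatives changed the thresholds of the choice, the pseudocount, the filter, the scaling, the test, the block and the libraries.

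The genes, lists and tests were chosen with earlier results of these data known. Named genes are the 12 of highest mean, the highest of each subgenome, the 3 with most reads outside these, genes numbered 1 apart, the 2 on each side of the minimum, and the 5 highest with 1 read elsewhere; no gene had reads in only 1 Ovule library. Other genes were named after their values were seen, as examples of a pattern between libraries, of equal length or of a run of identifiers. The comparisons of spread, held-out libraries, lengths and identifier numbers are descriptions. No sequence was used here.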

Additional observations from a re-analysis of the deposited data

How the results depend on the processing

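The number of genes detected only in ovule followed the thresholds. It was 178 at a minimum mean of 0.5 FPKM, 55 at 2, 27 at 5 and 18 at 10 FPKM, 57 with 1 FPKM asked of each Ovule library, and 176 when values below 0.1 FPKM were allowed in Leaf and Anther. Leaving out 1 library gave 92 to 159, the highest without Anther replicate 1. Rescaling by median-of-ratios factors left 79 of the genes. Of the 96 genes, 82 were called over each tissue, beside 36.8% of all genes tested over Leaf and 14.3% over Anther. Alternatives to the fit gave 57 to 95, and leaving out 1 library 82 to 91 over Leaf and 82 to 91 over Anther. The filter was lowered to 2 libraries where the library left out was from Ovule. The choice of the genes fixes these calls, and the counts mostly follow the filter. All 57 genes tested were called at a filter of 1 FPKM, and 95 of 96 with no filter. The share of the genes with reads in all Ovule libraries was 87.6% at a minimum of 0.5 FPKM and 100% at 2 FPKM, and allowing values below 0.1 FPKM elsewhere raised their share of Ovule FPKM to 0.1002%. With the replicate number as a block 82 were called over each tissue. Deviations from the tissue mean correlated at r from -0.10 to 0.16 between same-numbered libraries and from -0.12 to 0.15 between the others. With 3 libraries per tissue this check cannot tell whether same-numbered libraries share plants or a batch. With few reads, a level near 1 FPKM in a short gene and a 0 in Leaf are poorly determined.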
